A study of Mus musculus with 74 samples.

Results

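The genes described here are 9 markers of Schwann cells, the glia of peripheral nerve, as they appear in RNA from macrophage preparations of mouse sciatic nerve: Pmp22, Prx, Pmp2, Gldn, Sox10, Egr2, S100b, L1cam and Ncam1. They were chosen by name, and each matched 1 feature in both deposited expression tables, so 9 of 23297 features with a gene symbol (58976 features in all) are described. The libraries come from female mice on C57BL/6J that carry mutant human SOD1-G93A, a model of amyotrophic lateral sclerosis, or a wildtype human SOD1 transgene (WT), or no transgene (B6). Cells were selected on beads that bind CD11b, found on macrophages and microglia but also monocytes and neutrophils, from spinal cord (microglia, MG) or from sciatic nerve (peripheral macrophages, MP), after a density step meant to remove myelin and without enzyme digestion. The non-grafted set holds 18 MP and 33 MG libraries, and the grafted set holds 11 MP and 12 MG libraries. The question asked here is how much Schwann cell RNA each nerve preparation carried, whether it moved with disease stage or donor marrow, and how it differs from the cord preparations.

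The non-grafted MP groups were G93A before symptoms (3 libraries, mean age 50.8 days), at onset, the weight peak (3 libraries, 105 days), in early symptoms (4 libraries, 152.6 days) and at end stage (4 libraries, 169.4 days). Another 4 MP libraries, of an age matching end stage, carry conflicting labels: their descriptions say WT and their titles and strain say G93A, and they are called "described as WT" throughout. The MG groups used as the contrast were G93A at the same 4 stages (4, 5, 4 and 4 libraries), and WT and B6 controls at ages matching onset and end stage (4 libraries each). In the grafted set every recipient carried the mutant transgene, and the marrow, given at onset, came from G93A donors or from WT donors. Grafted MP were taken in early symptoms (3 libraries with G93A marrow, 2 with WT marrow) or at end stage (3 and 3). Each MP library held both sciatic nerves of 1 mouse, or of 2 mice in the pre-symptomatic group. No age is given for the grafted groups or for the libraries described as WT.

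Schwann cells ensheathe peripheral axons. Myelinating Schwann cells build compact myelin from proteins such as PMP22 under the transcription factors SOX10 and EGR2, while non-myelinating and immature Schwann cells carry adhesion molecules such as L1 and NCAM. After axons degenerate, Schwann cells shut down myelin genes and nerve macrophages engulf the debris, so glial RNA is often met in macrophage isolates from nerve. Several of the 9 genes are not limited to Schwann cells: oligodendrocytes use Sox10, astrocytes use S100b, neurons use L1cam and Ncam1, and macrophages can express Egr2.

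Values are FPKM as deposited by the authors, fragments scaled to gene length and library size. Tests ran on log2(FPKM + 1) with limma across all genes with a mean of at least 1 FPKM in the libraries of a fit, and a gene was called where its p, adjusted by Benjamini-Hochberg over those genes, was under 0.05. Of the 9 genes, 7 reached that mean over the non-grafted MP libraries (all but Sox10 and Gldn), 6 over the grafted MP libraries (all but Sox10, Gldn and Pmp2), 7 in the fits that join MP and MG (all but Gldn and Pmp2) and 5 over the non-grafted MG libraries (Pmp22, Sox10, S100b, Ncam1 and Egr2). A gene that reached the mean only through a few high libraries had to vary among them, so the counts below describe the genes tested and not all 9. In the fits that join MP and MG, Prx and L1cam reached the mean only through MP libraries. Their MG means were 0.13 and 0.58 FPKM in the non-grafted and 0.08 and 0.445 FPKM in the grafted set. Sox10 reached it only through MG libraries, with MP means of 0.542 and 0.263 FPKM in these sets. Calls of Prx, L1cam and Sox10 between MP and MG are therefore descriptions of these libraries and no independent support.

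Itgam, which encodes the CD11b used for selection and so cannot by itself mark macrophages, was at 97.4 to 378 FPKM in the non-grafted and 51.2 to 330 FPKM in the grafted MP libraries. Csf1r, the growth factor receptor of macrophages and microglia, was at 74.2 to 584 and 62.2 to 432 FPKM. Of 7 tested macrophage markers, 3 were called higher and 0 lower in MP than in MG before symptoms, and 0 higher and 4 lower at end stage (Csf1r, Cd68, Aif1 and Adgre1). Among all 11773 genes tested, 23.6% were called higher and 31% lower before symptoms, and 13.1% higher and 26.3% lower at end stage. Neutrophil genes were also high, among them S100a8 at 24808 to 80760 FPKM in the non-grafted MP libraries. The summed FPKM of 8 neutrophil markers ran from 68516 to 196708 in non-grafted and from 24256 to 201974 in grafted MP libraries. Summed FPKM per MP library ran from 625386 to 986659 in the non-grafted and from 615421 to 755253 in the grafted set, with 7939 to 10031 and 7792 to 10059 genes above 1 FPKM. Read depth is unknown and counting error could not be computed. In bulk RNA, fewer Schwann cells and less RNA per Schwann cell cannot be told apart.

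Myelin genes were spread very unevenly over single nerve libraries, and of the 3 described here, Pmp22, Prx and Pmp2, only Pmp22 was above 0 in all 18. Pmp22, a four-pass membrane protein of compact myelin (chr11:63128982-63159546, plus strand, mm10), was at 9.05, 2488 and 294 FPKM in the 3 pre-symptomatic libraries. It was at 185, 56.5 and 37.0 FPKM at onset, and at 19.5, 63.8, 28.4 and 28.8 FPKM in early symptoms. At end stage it was at 14.2, 12.1, 25.2 and 13.1 FPKM, and in the libraries described as WT at 198, 13.1, 53.6 and 28.9 FPKM. Pre-symptomatic replicate 2 stood apart: it alone held 69.7% of the Pmp22 FPKM summed over the 18 libraries and was 8.46 times the second highest, while pre-symptomatic replicate 1 was the lowest of all 18. The pre-symptomatic and end-stage values therefore overlapped, and the difference was -3.56 ± 1.17 on the log2 scale (SE, 95% interval -6.002 to -1.126, limma adjusted p = 0.565).

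Pmp22 transcripts start at several places. In mice and people the upstream start is known as the one used in myelinating Schwann cells and the downstream ones as used more widely, and a gene-level FPKM joins them. The windows of 250 bases before to 50 bases after the first and the last RefSeq start of Pmp22, and the one start of Prx, are shown because these genes carry the pre-symptomatic peak in replicate 2 (GRCm38.p6, all plus strand). Capitals mark the letters GGGGGCG, 1 of 2 short words searched for the EGR family (GTGGGCG and GGGGGCG), beside 2 for the SOX family (ACAAAG and ACAATG), on both strands.
Pmp22 first start (chr11:63128732-63129031): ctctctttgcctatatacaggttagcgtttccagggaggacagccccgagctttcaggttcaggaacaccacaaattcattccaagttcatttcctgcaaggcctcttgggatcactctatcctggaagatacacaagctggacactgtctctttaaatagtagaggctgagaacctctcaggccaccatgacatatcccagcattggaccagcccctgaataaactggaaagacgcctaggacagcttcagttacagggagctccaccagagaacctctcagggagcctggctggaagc
Pmp22 last start (chr11:63132553-63132852): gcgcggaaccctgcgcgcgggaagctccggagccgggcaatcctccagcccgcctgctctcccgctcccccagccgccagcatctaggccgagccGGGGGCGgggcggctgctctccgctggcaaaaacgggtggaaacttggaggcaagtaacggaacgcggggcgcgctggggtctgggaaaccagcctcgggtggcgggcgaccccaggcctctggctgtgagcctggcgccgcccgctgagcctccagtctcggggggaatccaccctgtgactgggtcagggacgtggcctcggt
Prx start (chr7:27499074-27499373): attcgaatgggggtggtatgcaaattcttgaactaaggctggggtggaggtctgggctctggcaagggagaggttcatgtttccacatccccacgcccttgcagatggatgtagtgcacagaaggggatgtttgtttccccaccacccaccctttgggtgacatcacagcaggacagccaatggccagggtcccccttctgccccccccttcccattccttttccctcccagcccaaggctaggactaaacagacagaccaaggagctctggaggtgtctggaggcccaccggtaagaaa
Among 32544 RefSeq promoter windows of this length, GGGGGCG was found in 16.5%, GTGGGCG in 8.001%, ACAAAG in 18.7% and ACAATG in 12.4%. None of the 4 words was found in the Prx window or in the first Pmp22 window. Of the other genes with a window, the first start of Egr2 held GTGGGCG on the minus strand, and S100b, Gldn and L1cam held none. These are letter matches and not measured binding.

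Prx encodes periaxin, which anchors the myelin sheath of Schwann cells (chr7:27499324-27520214, plus strand). It was at 0, 53.7 and 7.23 FPKM before symptoms, at 8.98, 0 and 0 at onset, at 3.76, 6.46, 0 and 3.31 in early symptoms and at 0, 0, 0 and 1.31 at end stage. The libraries described as WT were at 26.1, 7.48, 5.18 and 1.43 FPKM. Pre-symptomatic replicate 2 was again the highest, described-as-WT replicate 1 was the second, and 3 of 4 end-stage libraries were listed at 0. The end-stage libraries did not overlap with those described as WT, all of which were higher. Among all 10260 genes tested, 2.27% had end-stage libraries below those described as WT without overlap. The fitted difference was -2.64 ± 1.04 on the log2 scale (SE, adjusted p = 0.670).

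Pmp2, a fatty acid binding protein of peripheral myelin (chr3:10179851-10183885, minus strand), was at 0, 30.1 and 4.34 FPKM before symptoms and listed at 0 in all 4 end-stage libraries. The values between were 0, 0 and 2.43 FPKM at onset and 1.01, 0, 1.42 and 0 in early symptoms, with 3.98, 0, 1.43 and 0.03 in the libraries described as WT. Pre-symptomatic replicates 2 and 3 were the highest of the 18 and described-as-WT replicate 1 the third, and pre-symptomatic replicate 1 shared the value 0 with end stage (adjusted p = 0.640).
Gldn, gliomedin, which Schwann cells place at nodes of Ranvier (chr9:54286485-54341785, plus strand), was near 0 in most libraries. It reached 3.90 FPKM in onset replicate 1 and 4.59 FPKM in early symptomatic replicate 2, was at most 0.51 FPKM in the other 12 G93A libraries and was listed at 0 in all 4 described as WT. It did not peak where Pmp22 did, since pre-symptomatic replicate 2 held 0.12 FPKM.

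The 2 transcription factor genes differed at end stage. Sox10, the factor that Schwann cells need at every step of their development (chr15:79154909-79165240, minus strand), was at 0, 5.68 and 0.92 FPKM before symptoms and at 2.17, 0 and 0 at onset. It was at 0.05, 0, 0 and 0.23 FPKM in early symptoms, listed at 0 in all 4 end-stage libraries, and at 0.68, 0, 0 and 0.02 in those described as WT. Its mean of 0.542 FPKM over the 18 libraries was under the filter. Its highest library was that of Pmp22, pre-symptomatic replicate 2, and onset replicate 1 was the second.
Egr2, the factor that switches on myelin genes and is also induced in activated myeloid cells (chr10:67537868-67542187, plus strand), was at 0.01, 9.56 and 0 FPKM before symptoms and at 12.2, 0 and 0 at onset. It was at 3.47, 9.75, 0 and 1.68 FPKM in early symptoms, at 3.00, 4.12, 4.24 and 0.91 at end stage, and at 6.67, 0, 0.07 and 0.03 in those described as WT. Like Pmp22, and unlike Prx and Pmp2, it was above 0 in every end-stage library, and the end-stage difference from pre-symptomatic libraries was 0.78 ± 1.05 (SE, adjusted p = 0.924).

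S100b, a calcium-binding protein of Schwann cells and astrocytes (chr10:76253836-76261318, plus strand), was at 0, 15.8 and 21.0 FPKM before symptoms and at 15.8, 1.21 and 4.13 at onset. It was at 3.13, 51.1, 1.45 and 6.10 FPKM in early symptoms, at 2.30, 73.2, 3.04 and 0.10 at end stage, and at 34.3, 3.60, 4.56 and 3.75 in those described as WT. The highest library was end-stage replicate 2, where Prx, Pmp2 and Sox10 were listed at 0 and Pmp22 was the lowest of its group, so S100b did not peak with these genes. Mbp, another myelin gene, was highest of the 18 in the same library, at 2410 FPKM.
The adhesion genes rested less on single libraries, though Ncam1 also varied within groups and was listed at 0 in 2 of 18 libraries. L1cam, an adhesion molecule of non-myelinating Schwann cells and axons (chrX:73853780-73880834, minus strand), was at 4.74, 5.23 and 6.19 FPKM before symptoms and at 5.80, 0 and 4.98 at onset. It was at 5.06, 19.2, 6.81 and 7.76 FPKM in early symptoms, at 2.14, 9.19, 5.89 and 1.10 at end stage, and at 12.1, 5.68, 12.97 and 6.25 in those described as WT. It was above 1 FPKM in 17 of 18 libraries, and its highest library held 15.9% of the summed FPKM.
Ncam1, an adhesion molecule of immature and non-myelinating Schwann cells, neurons and natural killer cells in people (chr9:49502129-49799393, minus strand), was at 13.02, 2.18 and 0 FPKM before symptoms and at 4.58, 12.5 and 13.02 at onset. It was at 0.95, 0, 8.95 and 10.3 FPKM in early symptoms, at 8.73, 6.09, 9.44 and 4.47 at end stage, and at 4.49, 6.22, 3.83 and 6.77 in those described as WT. Its order ran against that of the myelin genes: it was at 13.02 FPKM in pre-symptomatic replicate 1, where Pmp22 was lowest, and at 2.18 in replicate 2, where Pmp22 was highest. Over the 18 libraries Pearson's r of log2(FPKM + 1) was -0.59 (Spearman's rho -0.70) between Ncam1 and Prx and -0.45 (rho -0.41) between Ncam1 and Pmp22, given as a description of libraries that share stage groups.

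**Figure D1:**
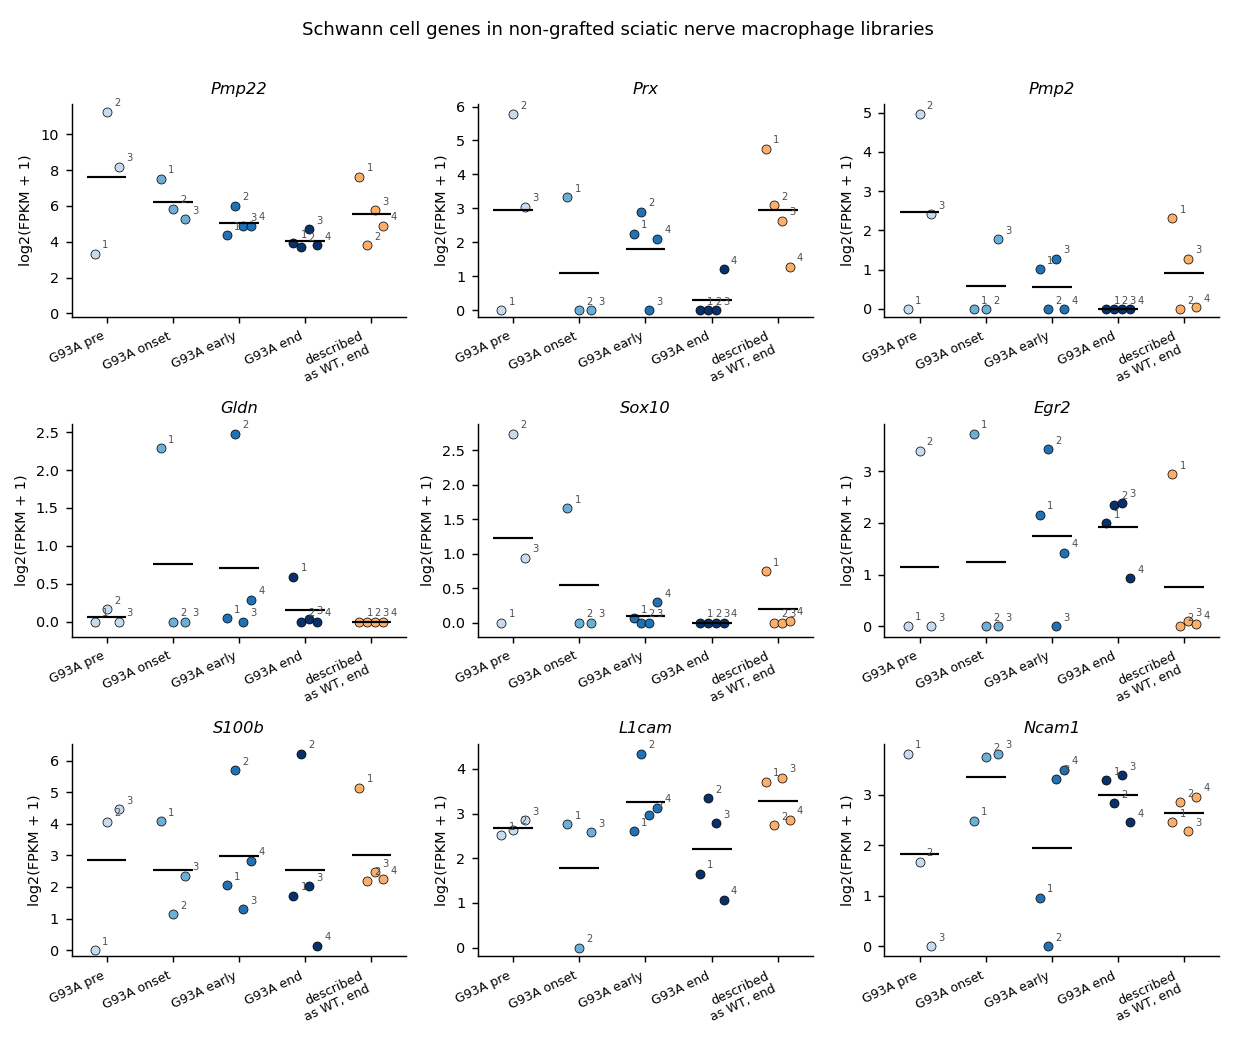
The 9 Schwann cell genes in the 18 non-grafted nerve macrophage (MP) libraries, each panel on its own axis of log2(FPKM + 1), with 1 point per library numbered by replicate and a bar at the group mean. Pre-symptomatic replicate 2 is highest for Pmp22 (2488 FPKM), Prx, Pmp2 and Sox10, while end-stage replicate 2 is highest for S100b (73.2 FPKM).

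No Schwann cell gene was called between stages. In limma's test 0 of 7 tested genes passed in each of the 5 comparisons among non-grafted MP groups. The background was as low: 0% of 10260 genes were called at onset and in early symptoms against pre-symptomatic libraries, 0.00975% at end stage against pre-symptomatic, 0% at end stage against early symptoms and 0% at end stage against the libraries described as WT. At an unadjusted p under 0.05, 0 of the 7 passed at onset, 2 in early symptoms (Pmp22 and Pmp2), 3 at end stage (Pmp22, Pmp2 and Prx) against pre-symptomatic libraries, 0 at end stage against early symptoms, and 1 (Prx) at end stage against those described as WT. The shares of all genes at that unadjusted level were 4.62%, 5.21%, 6.54%, 3.26% and 6.45%, in the same order. Pmp2 reached a mean of 1 FPKM only through the pre-symptomatic group, so its place in these counts is a description of those libraries. Among the first 4 of these comparisons no tested gene had groups without overlap, where 2.76% of all genes were higher and 5.77% lower without overlap at onset, 1.49% and 3.9% in early symptoms, 1.31% and 4.81% at end stage, and 0.965% and 1.46% at end stage against early symptoms. For end stage against pre-symptomatic libraries 2 of 7 estimates were positive and 5 negative with a median of -0.46, beside a median of -0.12 over all genes.
These counts rested on single pre-symptomatic replicates. Without replicate 1, Pmp22 was called lower at end stage (-5.70 on the log2 scale, adjusted p = 0.00708). Pmp2 also passed then (adjusted p = 0.0460), but it reached a mean of 1 FPKM only through pre-symptomatic replicates 2 and 3, so that call is a description of those libraries. Without replicate 2, the Pmp22 difference was -1.73 (adjusted p = 0.994). All 3 pre-symptomatic libraries have library numbers of 107 or more in the labels, while the early and end-stage G93A ones run from 45 to 53, so stage and library number are partly confounded. Mean age also rose with stage, from 50.8 to 169.4 days, so disease and age cannot be told apart. Only the pre-symptomatic MP libraries pooled 2 mice, so pooling and stage cannot be told apart in comparisons with them.

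Other Schwann cell genes were read from 3 lists that leave out the 9. Of 16 myelin genes, 13 were tested in MP, none was called at end stage against pre-symptomatic libraries, and 1 estimate was positive and 12 negative, with a median of -1.39. Of 12 lineage and non-myelinating genes 4 were tested, and of 9 genes of repair Schwann cells, the state after nerve injury, 2 were tested, with medians of 0.43 and 0.26 and no call. The fibroblast genes of nerve gave 1 positive and 5 negative estimates with a median of -2.31, so lower estimates were found outside the glial lists too.

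Glial genes were high together in different combinations in different libraries. Genes other than the 9 named in this paragraph for their values were picked from the marker lists after their values were seen. In pre-symptomatic replicate 2 the high genes were Pmp22 at 2488, Mbp at 823, Mal (a myelin lipid raft protein) at 70.2, Prx at 53.7 and Dhh (desert hedgehog, a Schwann cell signal to the nerve sheath) at 15.3 FPKM. Dcn, decorin, a gene of nerve fibroblasts, was also highest of the 18 there, at 319 FPKM, and second in pre-symptomatic replicate 3, at 171, as was Pmp22, and its part in these values was not tested. Mobp, a myelin gene of oligodendrocytes, was at 0.09 FPKM there, and Gfap, a filament gene of astrocytes and non-myelinating Schwann cells, at 0.05.
In end-stage replicate 2 the order turned round. Mbp, which both kinds of myelin use, was at 2410, Gfap at 1046, Mobp at 552 and Aldoc, an aldolase enriched in astrocytes, at 517 FPKM, while Pmp22 was at 12.1. Summed over 8 oligodendrocyte markers, this library held 559 FPKM, of which Mobp alone made up 552, and 3 of the 8 were above 1 FPKM. The sum was 5.97 FPKM in pre-symptomatic replicate 2, and between 0 and 113.99 in the other 16.
Described-as-WT replicate 1 held both, with Pmp22 at 198, Mobp at 98.7 and Aldoc at 213 FPKM, as did early symptomatic replicate 2, with Pmp22 at 63.8, Mobp at 105 and Aldoc at 95.5. S100b was high in the libraries with Mobp: its 3 highest libraries, at 73.2, 51.1 and 34.3 FPKM, had the 3 highest Mobp values. Where the Mobp, Gfap and Aldoc RNA in nerve libraries came from was not tested.
Likeness of patterns was measured across libraries. Over the 18 libraries the gene most like Pmp22 outside the 9 was Scpep1 (Pearson's r 0.93, Spearman's rho 0.86), and Mal (0.90 and 0.89) was also among the most alike. The genes most like S100b were Mbp (0.96 and 0.87), Plekhb1 (0.96 and 0.95) and Fxyd1 (0.88 and 0.87). Without the 2 libraries farthest from the median of the named gene, r was 0.88 for Pmp22 with Scpep1 and 0.95 for S100b with Mbp. Prx was most like Ogn (0.84 and 0.78) and Igfbp6 (0.82 and 0.85), Pmp2 most like Fa2h (0.93 and 0.64), Ncam1 most like Metrn (0.89 and 0.74), Egr2 most like Siglech (0.81 and 0.74), and L1cam most like a feature of joined Ugt1a genes (0.72 and 0.68). Without the 2 farthest libraries r was lower for these: 0.73 for Prx with Ogn, 0.78 with Igfbp6, and 0.76 for Pmp2 with Fa2h. It was 0.74 for Ncam1 with Metrn, 0.74 for Egr2 with Siglech and 0.51 for L1cam with the Ugt1a feature. All these likenesses are descriptions over libraries that share groups, chosen as the highest of all genes with a mean of at least 1 FPKM.

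**Figure D2:**
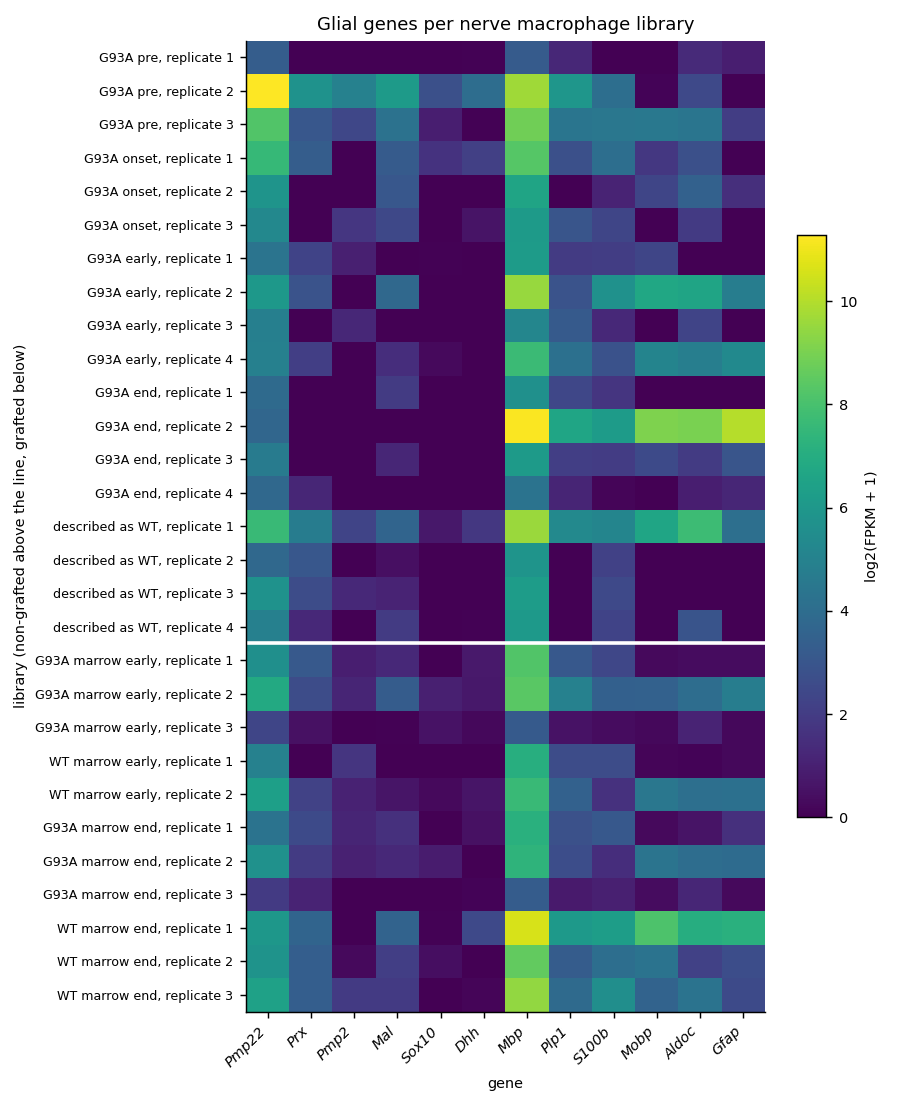
Level of 12 glial genes (columns) in each of the 29 MP libraries (rows, non-grafted above the white line and grafted below), colored by log2(FPKM + 1). Pre-symptomatic replicate 2 is bright for Pmp22, Prx and Mal and dark for Mobp and Gfap, and end-stage replicate 2 is bright for Mbp, Mobp, Aldoc and Gfap and dark for Prx and Pmp2.

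In the grafted MP libraries the comparison of interest is WT against G93A donor marrow in G93A recipients. At end stage S100b, Pmp22 and Prx were higher in all 3 libraries with WT marrow than in all 3 with G93A marrow, and Ncam1 was lower in all 3, but none passed the test across all genes. S100b was at 7.68, 1.81 and 0.96 FPKM with G93A marrow and at 76.2, 15.9 and 46.9 FPKM with WT marrow. The groups did not overlap, and the difference was 3.45 ± 0.88 on the log2 scale (SE, 95% interval 1.54 to 5.36, adjusted p = 0.151).
Pmp22 was at 18.9, 50.5 and 2.72 FPKM with G93A marrow and at 61.5, 54.9 and 85.7 FPKM with WT marrow, a difference of 2.10 ± 1.06 (SE, adjusted p = 0.363). Prx was at 4.78, 2.92 and 1.17 FPKM with G93A marrow and at 11.3, 9.26 and 9.20 FPKM with WT marrow, a difference of 1.57 ± 0.80 (SE, adjusted p = 0.368). The nearest libraries of the groups were close for Pmp22 (50.5 against 54.9 FPKM) and farther apart for Prx (4.78 against 9.20).
Ncam1 was at 7.86, 6.23 and 11.7 FPKM with G93A marrow and at 0.01, 3.49 and 2.38 FPKM with WT marrow, a difference of -1.91 ± 1.03 (SE, adjusted p = 0.394). Non-overlap was common here: 9.03% of 10299 genes were higher and 14% lower with WT marrow without overlap. In limma 0 of 6 tested genes were called (0% of all genes), and at an unadjusted p under 0.05 only S100b of the 6 passed, as did 15.4% of all genes.
The remaining genes overlapped. Egr2 was at 1.88, 1.08 and 0 FPKM with G93A marrow and at 0, 0.01 and 2.00 with WT marrow, and L1cam at 7.22, 4.79 and 2.58 against 0.02, 5.35 and 2.88 FPKM. Pmp2 was at most 2.83 FPKM and Sox10 at most 0.82, and Gldn was at 7.61 FPKM in WT marrow replicate 3 and at most 0.34 in the other 5.

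Markers of other cells moved with these differences. Itgam was at 323, 330 and 264 FPKM with G93A marrow and at 51.2, 185 and 66.6 FPKM with WT marrow at end stage, so every WT marrow library held less CD11b RNA. The summed level of 8 oligodendrocyte markers was 0.33 to 19.4 FPKM with G93A marrow and 18.3 to 302 with WT marrow, which overlapped. Mobp alone made up 283 of the 302 FPKM, in WT marrow replicate 1. Mbp ran from 8.81 to 160 against 385 to 1553 FPKM. In all, 8 of 10 tested myelin genes and 3 of 3 lineage genes had positive estimates with medians of 1.22 and 2.18, both tested oligodendrocyte genes were positive with a median of 3.24, and the median over all genes was -0.15. The part of these cells in the S100b difference was not tested. Without WT marrow replicate 1, which held the most Mobp (283 FPKM) and Gfap (140 FPKM), the S100b difference was 2.97 (adjusted p = 0.244). Without WT marrow replicate 2 it was 4.07 (adjusted p = 0.0504), and without G93A marrow replicate 3 the Pmp22 difference was 1.07 (adjusted p = 0.718). Without WT marrow replicate 1 the Ncam1 difference was -1.26 (adjusted p = 0.634).

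In early symptoms the marrow groups overlapped for all 6 tested genes and 0 were called (0% of 10299 genes in limma, 0 of 6 genes and 2.38% of all genes at an unadjusted p under 0.05), while 6.79% of all genes were higher and 7.92% lower without overlap. Pmp22 was at 48.9, 113.06 and 4.08 FPKM with G93A marrow and at 30.1 and 81.5 FPKM with WT marrow, and S100b at 4.24, 10.1 and 0.29 against 5.22 and 2.03 FPKM. Prx was at 7.88, 5.07 and 0.40 against 0.03 and 3.74 FPKM, and Egr2 at 25.7, 3.16 and 0.54 against 3.38 and 2.14 FPKM. The Egr2 value of 25.7 FPKM was the highest in any of the 29 MP libraries. G93A marrow replicate 3 was low for the myelin genes at both stages, though these are different mice. Ncam1 was at 0.24, 0.06 and 8.03 FPKM against 0.03 and 10.3, again high where Pmp22 was low in the G93A marrow group. With WT marrow the order went the other way: Ncam1 was at 10.3 FPKM where Pmp22 was at 81.5, and at 0.03 where Pmp22 was at 30.1.
From early symptoms to end stage, no gene was called within either marrow group (0% of all genes in both). With WT marrow, 2 of 6 passed at an unadjusted p under 0.05, S100b (3.19 ± 0.98) and Prx (2.30 ± 0.90), both higher at end stage without overlap, beside 8.22% of all genes at that level and 9.53% higher without overlap. Egr2 was lower without overlap, as were 12.4% of all genes, and Gldn, which was not tested, was higher without overlap. With G93A marrow 0 of 6 passed at that level, beside 4.22% of all genes, and 0 were without overlap, beside 7.1% higher and 6.82% lower among all genes. The marrow difference at end stage minus that in early symptoms was tested directly and 0 of 6 were called (0% of all genes), with S100b at 3.41 ± 1.32 (SE, 95% interval 0.55 to 6.27, adjusted p = 0.560) the only 1 of 6 at an unadjusted p under 0.05, beside 8.86% of all genes.

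**Figure D3:**
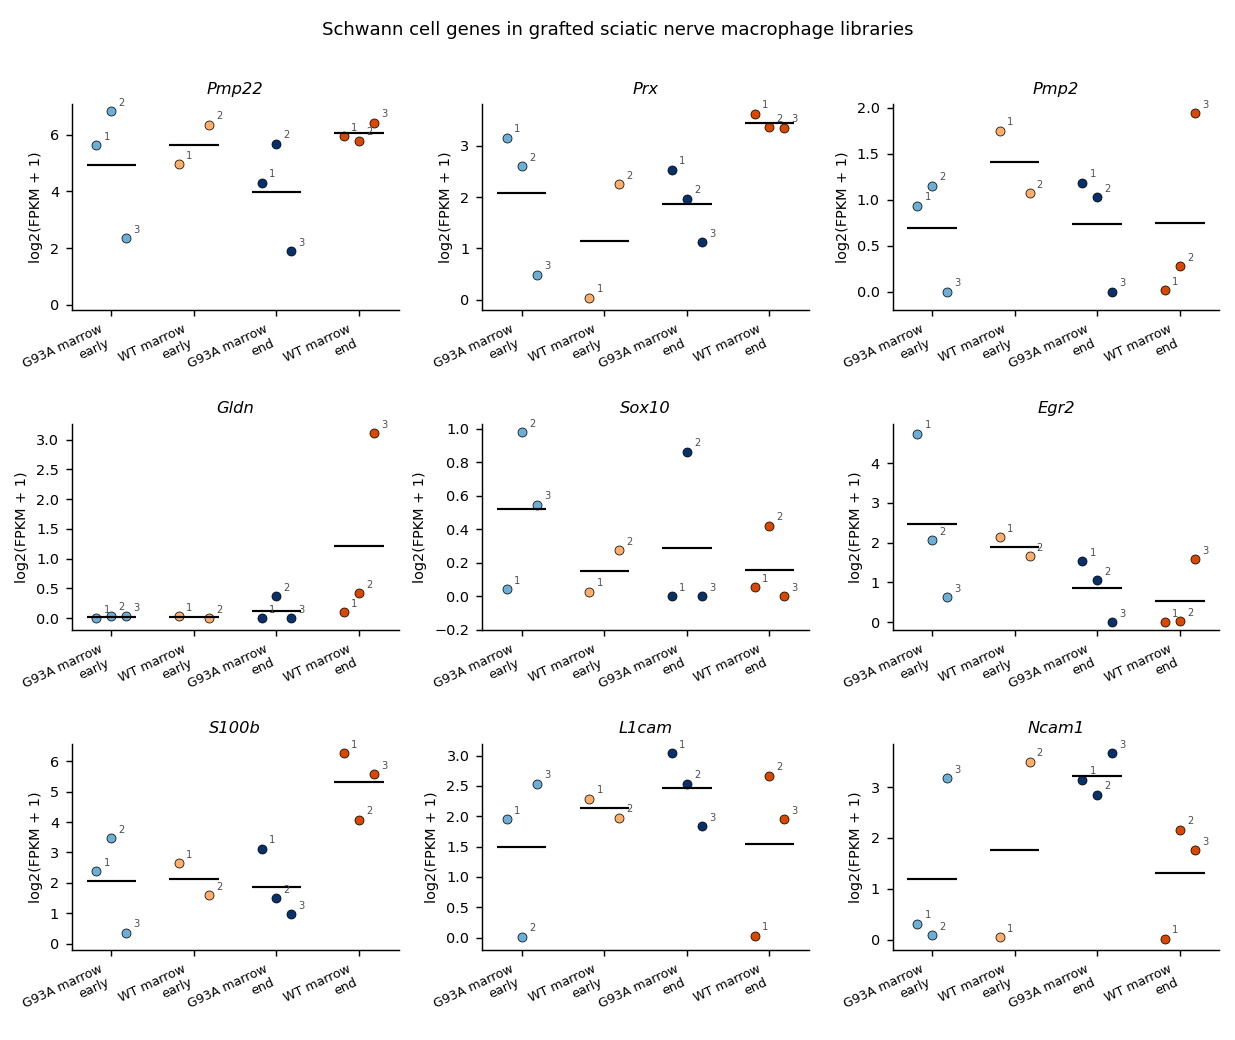
The 9 genes in the 11 grafted MP libraries, each panel on its own axis of log2(FPKM + 1), with 1 point per library numbered by replicate and a bar at the group mean. At end stage the 3 WT marrow libraries lie above the 3 G93A marrow libraries for S100b (15.9 to 76.2 against 0.96 to 7.68 FPKM), Pmp22 and Prx, and below them for Ncam1.

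Spinal cord microglia preparations carried a different subset of the 9 genes. Prx, Pmp2 and Gldn were near 0 in MG: over the 33 non-grafted libraries Prx was at most 0.56, Pmp2 at most 0.21 and Gldn at most 0.13 FPKM. In the 18 non-grafted MP libraries the highest values were 53.7, 30.1 and 4.59 FPKM. In contrast S100b (median 572 FPKM), Ncam1 (47.3) and Sox10 (4.00) were higher in MG than in MP (medians 3.94, 6.16 and 0 FPKM), in cord libraries where Mobp had a median of 3604 and Aldoc of 5070 FPKM, and the part of oligodendrocytes and astrocytes in this was not tested. These medians pool stages and controls. For Ncam1 the order turned at G93A end stage (median 4.17 FPKM in MG, 7.41 in MP) and in the grafted set (2.52 in MG, 3.49 in MP). Pmp22 was present in both, with a median of 120.89 FPKM in MG against 28.8 in MP.

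Before symptoms 2 of 7 tested genes were called higher and 3 lower in MP than in MG, in a comparison where 54.7% of 11773 genes were called (23.6% higher and 31% lower) and 23.8% were higher and 30.8% lower without overlap. Prx was higher by 2.87 ± 0.72 on the log2 scale (SE, adjusted p = 0.000773), at 0 to 53.7 FPKM in MP and 0 to 0.15 in MG. That call rested on pre-symptomatic replicate 2, and without it the difference was 1.45 (adjusted p = 0.0692). L1cam was higher by 2.02 ± 0.48 (SE, adjusted p = 0.000478), at 4.74 to 6.19 against 0.46 to 0.69 FPKM, with no overlap. Prx and L1cam passed the filter only through MP libraries, so their calls are descriptions.
S100b was lower in MP (-6.51 ± 1.10 on the log2 scale, SE, adjusted p = 3.3e-06), at 0 to 21.0 against 456 to 801 FPKM. Ncam1 (-4.04 ± 0.83, SE) was at 0 to 13.02 against 47.3 to 69.5 FPKM and did not overlap either. Sox10 (-1.54 ± 0.52, SE, adjusted p = 0.0118) was at 0 to 5.68 against 3.79 to 7.39 FPKM, and the call was lost without MP replicate 1 (adjusted p = 0.168) or MP replicate 3 (0.0503). Sox10 passed the filter only through MG libraries, so its call is also a description. Pmp22 was not called (1.61 ± 0.89, SE, adjusted p = 0.124), and its direction rested on single libraries: 3.74 without MP replicate 1 (adjusted p = 5.77e-05) and -0.23 without MP replicate 2 (0.828). Another scaling of the libraries, by median ratios, moved the median of all genes in this comparison from -0.17 to -0.57 and the share of calls that were higher from 43.3% to 30.3%, and the same 5 genes were called under it.

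At end stage 1 of 7 genes was called higher and 4 lower in MP than in MG, beside 39.4% of all genes (13.1% higher and 26.3% lower, with 25.3% lower without overlap). Pmp22 was at 12.1 to 25.2 FPKM in MP and at 167 to 293 in MG, with no overlap (-3.88 ± 0.82, SE, adjusted p = 0.000264). S100b (-4.35 ± 1.02, SE, adjusted p = 0.000763) overlapped through MP replicate 2, at 0.10 to 73.2 against 47.6 to 288 FPKM. Egr2 (-2.24 ± 0.71, SE, adjusted p = 0.0109) was at 0.91 to 4.24 against 8.60 to 22.4 FPKM, a call lost with a pseudocount of 0.1 (adjusted p = 0.0936). Sox10 was listed at 0 in all 4 MP libraries against 0.54 to 2.60 FPKM in MG (adjusted p = 0.0356), a call lost without any one of the 4 MP libraries or without MG replicate 2, 3 or 4 (0.0516 to 0.109). L1cam was higher in MP (1.60 ± 0.45, SE, adjusted p = 0.00429), and Prx was not called (0.23 ± 0.66, SE, adjusted p = 0.807). Sox10 passed the filter only through MG libraries and L1cam only through MP libraries, so their calls are descriptions. MG replicate 4 stood apart in the neutrophil gene S100a8, at 20413 FPKM against at most 807 in the other 3, and without it the differences were -4.06 for Pmp22 (adjusted p = 0.000405) and -2.54 for Egr2 (0.00806). Ncam1, at 7.18 ± 2.31 FPKM in MP and 6.47 ± 6.48 FPKM in MG (mean ± SD, n = 4 each), was not called (0.44 ± 0.77, SE, adjusted p = 0.671).

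Between pre-symptomatic and end-stage mice, nerve and cord preparations moved differently for Pmp22 and Ncam1, 2 of 7 tested genes, where 19.8% of all genes differed (9.51% with the higher and 10.3% with the lower value in MP). The mean ages of these mice were 50.8 and 169.4 days, so disease and age cannot be told apart here. Nor can pooling in MP, where only the pre-symptomatic libraries pooled 2 mice. In MG, Pmp22 rose from 39.7 to 125.65 FPKM in the 4 pre-symptomatic libraries to 167 to 293 at end stage (1.92 ± 0.49, SE, adjusted p = 0.00236). The MP estimate was negative, and the difference between the changes was -5.49 ± 1.21 (SE, adjusted p = 0.00355). It stayed called without pre-symptomatic MP replicate 2, the highest library, though the difference was then -3.65 (adjusted p = 0.0216). The MG libraries also changed in other markers between these stages. Itgam went from 55.2 ± 29.5 to 158.2 ± 23.8 FPKM in MG, and from 223.7 ± 26.2 to 181.7 ± 63.6 FPKM in MP (mean ± SD). Mbp went from 22843 ± 1318 to 4403 ± 2915 FPKM in MG. The part of these shifts in the Pmp22 rise in MG and in the difference between the changes was not tested.
Ncam1 fell in MG from 57.9 ± 9.496 FPKM before symptoms to 6.47 ± 6.48 FPKM at end stage (mean ± SD), with no overlap (-3.32 ± 0.75, SE, adjusted p = 0.00107), with a difference between the changes of 4.48 ± 1.13 (SE, adjusted p = 0.00750). Prx was just outside the threshold (-2.64 ± 0.98, SE, adjusted p = 0.05002). Egr2 (-2.56 ± 1.04, SE, adjusted p = 0.0739), S100b (2.16 ± 1.49, 0.309), L1cam (-0.42 ± 0.66, 0.684) and Sox10 (0.28 ± 0.71, 0.814) were not called.
In MG all 5 tested genes were called between these stages, beside 55.9% of 11750 genes (24.8% higher and 31.1% lower), and none overlapped, beside 23.1% higher and 29.7% lower without overlap. Pmp22 and Egr2 (from 0.39 to 1.00 up to 8.60 to 22.4 FPKM, 3.35 ± 0.44, SE) rose, and Sox10 (-1.51 ± 0.48), S100b (-2.48 ± 0.79) and Ncam1 fell. In the same libraries 12 of 12 tested myelin genes, 8 of 8 astrocyte genes and 7 of 8 oligodendrocyte genes were called lower. Against WT cord at the matched age, Egr2 was the only 1 of 5 called (1.85 ± 0.44, SE, adjusted p = 0.0112), at 8.60 to 22.4 FPKM in G93A and 1.67 to 6.64 in WT, beside 7% of all genes, and 5.97% were higher without overlap. That call was lost without WT replicate 3 (adjusted p = 0.0644).

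In the grafted set, MP minus MG averaged over the 4 marrow and stage groups called 6 of 7 tested genes, where 61.5% of 11248 genes were called (26.3% higher and 35.3% lower). Prx (2.03 ± 0.29, SE, adjusted p = 5.59e-06) and L1cam (1.44 ± 0.32) were higher in MP. Pmp22 (-2.46 ± 0.46), Sox10 (-0.95 ± 0.28), S100b (-3.20 ± 0.45) and Egr2 (-2.16 ± 0.39) were lower. Prx and L1cam passed the filter only through MP libraries and Sox10 only through MG libraries, so their calls are descriptions. Prx was at 0.03 to 11.3 FPKM in the 11 MP libraries against 0 to 0.41 in the 12 MG libraries, and Pmp22 at 2.72 to 113.06 against 49.7 to 363 FPKM. Ncam1 was not called (-0.36 ± 0.50, SE, adjusted p = 0.549). Gldn and Pmp2 were not tested, at 0 to 7.61 and 0 to 2.83 FPKM in MP against at most 0.22 and 0.05 in MG. The directions were those of the non-grafted end-stage estimates for Pmp22, Sox10, S100b, Egr2, L1cam and Prx and the opposite for Ncam1, which was called in neither, in separate mice. Among genes that work with Egr2 in Schwann cells or are induced like it, Egr1 (-3.09 ± 0.32) and the corepressor Nab2 (-2.74 ± 0.42) were also lower in grafted MP, while Fos (3.18 ± 0.39) and Ier2 (2.71 ± 0.19) were higher.

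**Figure D4:**
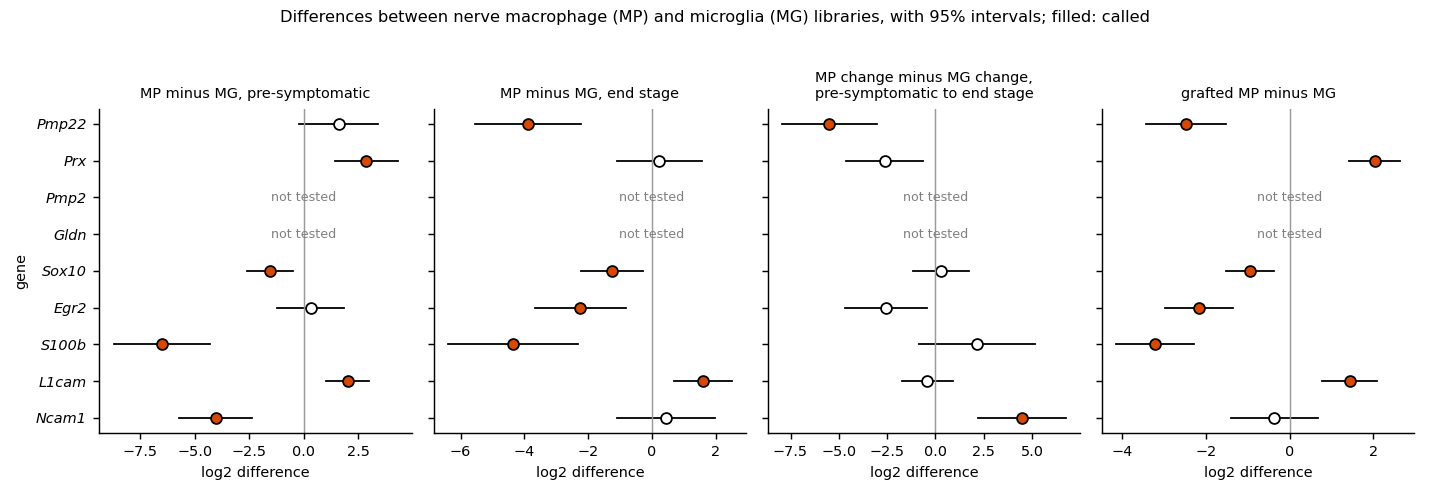
Difference between MP and MG libraries for the 9 genes on the log2(FPKM + 1) scale, as estimates (points) with 95% intervals (lines), where filled points were called at an adjusted p under 0.05. S100b is lower and L1cam higher in MP in the panels for pre-symptomatic, end-stage and grafted mice. Pmp22 (-5.49) and Ncam1 (4.48) differ between MP and MG in their change from pre-symptomatic to end-stage mice, which also differ in age.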

How the data were processed

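RNA was measured by sequencing in 74 libraries, 51 non-grafted and 23 grafted, each of 1 mouse or, for pre-symptomatic MP, a pool of mice, in 21 groups from the labels. The sample labels do not tell whether cord and nerve libraries of a stage share mice, and the joint fits do not pair them. The authors deposited FPKM, per the file headers, written with decimal commas, in 1 table per set. The build mm10, R 3.2.5, SAMtools, Picard, FastQC and DESeq2 appear in the submitters' processing notes, with no role. The sources used here do not give the aligner, the counting or its use of strand, so antisense features overlapping Pmp22, Prx, Gldn, Ncam1 and Egr2 cannot be told apart from them. Low values did not fall on steps of whole reads (the smallest above 0 is 0.01), so depth stayed unknown and no count test was run. The 2 tables were never tested against each other.

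The 9 genes and 14 marker lists were chosen with earlier results of these data known. limma 3.58.1 in R 4.3.3 (group means, eBayes with a trend) was fitted on log2(FPKM + 1) over the 18 non-grafted MP, 11 grafted MP, 33 non-grafted MG, all 51 non-grafted or all 23 grafted libraries, on genes with a symbol and a mean of at least 1 FPKM, and p-values were adjusted over all genes tested. Such fold changes understate those of low genes. The rule for naming was all 9 genes, with Mbp, Itgam and S100a8 as levels, up to 4 called genes per list, and the genes most like each of the 9 by Pearson's r, and 1 gene that this rule names is not reported here. The fit was tested on simulated data. The alternatives were pseudocounts of 0.1 and 0.5, no filter, median-ratio scaling, rescaling without neutrophil, erythroid and mitochondrial genes, only the groups compared, library quality weights, a replicate block, a term for a library number of 100 or more, and leaving out each library. Promoter windows are RefSeq's, and positions are mm10, from the deposited tables.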

Additional observations from a re-analysis of the deposited data

Results flagged for a closer look

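Single libraries stood apart from the rest of their group on the log2(FPKM + 1) scale in 6 of 61 group and gene combinations of 4 or more libraries that reach 1 FPKM. The rule flags about 1 in 20 for normal values. Several groups here hold values at or near 0 and the combinations share libraries, so that rate does not apply and no excess is read from the count. S100b was at 34.3 FPKM in described-as-WT replicate 1 against at most 4.56 in the other 3, and Egr2 in the same library was at 6.67 FPKM against at most 0.07. Gldn was at 4.59 FPKM in early symptomatic MP replicate 2, where the next library held 0.22. Prx was at 1.31 FPKM in end-stage MP replicate 4, with the other 3 listed at 0. In MG, Egr2 was at 8.60 FPKM in G93A end-stage replicate 4 against at least 19.7 in the others, and L1cam at 3.24 FPKM in G93A onset replicate 5 against at most 0.50. The same libraries were the highest of their groups in S100a8, a neutrophil gene, at 20413 FPKM in end-stage replicate 4 (at most 807 in the others) and at 39129 FPKM in onset replicate 5 (at most 346 in the others), and its part in these values was not tested.

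From pre-symptomatic to end-stage mice, which also differ in age, MP and MG moved differently in the test of the difference itself for Pmp22 (-5.49 on the log2 scale) and for Ncam1 (4.48).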

How the results depend on the processing

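Of the comparisons' counts of called genes, those named here moved by over 1.5 times, and the cause was not tested. With only the groups compared in the fit, 3 of the 9 genes were called between MP and MG before symptoms, in place of 5. With library quality weights, 4 were called for the difference in change between MP and MG, in place of 2, and 3 between G93A and WT cord at end stage, in place of 1. Leaving out each library gave 0 to 2 calls for MP at end stage against pre-symptomatic, 4 to 5 for MP against MG before symptoms and again at end stage, 2 to 4 for the difference in change (4 without pre-symptomatic MP replicate 1), 0 to 2 for G93A against WT cord, 6 for grafted MP against MG, 5 for MG over stages and 0 for the others. Over single genes and all alternatives, 1719 estimates kept their side of the threshold, 12 gained a call, 16 lost one and none of the called ones turned. Sox10 accounted for most lost calls at end stage, with adjusted p from 0.0508 to 0.109 where lost. Median-ratio scaling moved the median of all genes for the difference in change from -0.18 to 0.19, and the share of its calls that were higher from 48.1% to 65.5%, and Pmp22 and Ncam1 remained called. Rescaling without neutrophil, erythroid and mitochondrial genes moved that share from 44.3% to 27.4% for MG over stages, and median-ratio scaling moved it from 40.1% to 68.6% for G93A against WT cord. Over all genes, the count called moved from 1 to as many as 58 for MP at end stage against pre-symptomatic (without pre-symptomatic replicate 1), from 0 to 245 for marrow at end stage (without WT marrow replicate 2), from 2329 down to 1398 for the difference in change (without MG end-stage replicate 1), and from 822 to between 361 (only the groups compared) and 5714 (library quality weights) for G93A against WT cord, and from 0 to at most 5 for the others with none. In the fit with a term for library number, Pmp22 at end stage against pre-symptomatic MP was -5.73 (adjusted p = 0.536). Correlations over 0.1 were found for 3 of 33 same-numbered pairs in the non-grafted MP fit, 3 of 15 in grafted MP, 54 of 289 and 18 of 77 in the joint fits and 40 pairs in MG (from -0.82 to 0.81), so not every pair did, and the numbers are not taken to pair libraries; with a replicate block the Pmp22 difference in change was -5.46 (adjusted p = 0.00504) and the counts among the 9 genes did not move by over 1.5 times, while the 1 call over all genes for MP at end stage against pre-symptomatic was lost. Depth is unknown, and values near 0 may lie under what these libraries could show.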

Other observations

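Some genes of nerve fibroblasts were called higher in MP than in MG in both sets. Before symptoms these were 4 of 6 tested fibroblast genes, beside 23.6% of 11773 genes. Among them were Pi16 (5.14 ± 0.83 on the log2 scale, SE), a marker of fibroblasts in the nerve sheath, and Dcn, decorin (4.26 ± 0.84). At end stage Pi16 (4.56 ± 0.77) and Dcn (1.97 ± 0.78) were called higher, beside 13.1% of all genes. In the grafted set Pi16 (4.17 ± 0.54) and Dcn (3.47 ± 0.43) were called higher, beside 26.3% of all genes. There Dcn reached a mean of 1 FPKM only through MP libraries (mean 29.2 FPKM, against 0.698 in MG), so that call is a description. The MG levels of Pi16 are not given here. Over the 18 non-grafted MP libraries the mean of the 9 Schwann cell genes had among its most alike genes Ctsa, a lysosomal protease (r 0.89, rho 0.79), and Csf1r, the macrophage growth factor receptor (0.86 and 0.75). Dhh (0.83 and 0.49), Ncmap (0.82 and 0.69) and Pllp (0.82 and 0.77), from the list of Schwann cell myelin genes, were also among the most alike. Pre-symptomatic replicate 2 held the highest Csf1r (584 FPKM) and the lowest sum of neutrophil markers (68516 FPKM) of the 18. Without that library and described-as-WT replicate 1, r was 0.82 for Ctsa, 0.76 for Csf1r, 0.58 for Dhh, 0.70 for Ncmap and 0.51 for Pllp.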
